A study of Mus musculus with 29 samples.

Results

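Inflammatory monocytes and the chemokines that call them into tissue were followed through 9 genes of the 24421 in the count table, picked by symbol: Ccr2, its ligands Ccl2, Ccl7 and Ccl12, the monocyte genes Ly6c2, Plac8, Chil3 and Fcgr1, and Cx3cr1. All 9 were in the table, and all 9 passed the filter on low counts in every comparison. The libraries came from female C57BL/6J mice, 5 to 6 weeks old at the start, and every mouse, controls included, had received YTN16 cells IP on day 0. YTN16 is 1 transplantable gastric cancer (GC) line that grows in mice with an intact immune system, so all tumors derive from the same line. RNA was taken from peritoneum stripped from the body wall, with or without tumor nodules, and each library is taken as 1 mouse. At 3wk (day 21) there were 5 untreated mice, which received PBS, and 5 dual ICI mice, which received the immune checkpoint inhibitors anti-PD1 and anti-CTLA4 together. At 5wk (day 35) there were 5 untreated mice with PBS, 5 with anti-PD1 alone, 4 with anti-CTLA4 alone and 5 with dual ICI. By the study's text, the 5wk mice were injected on more days than the 3wk mice. Of the last 5, mice #1 and #5 were uncured and mice #2, #3 and #4 were cured. The anti-PD1 group is of mixed outcome too, since the study's text calls a mouse of that group cured without giving its number, so it was not split. The labels give only the antibody and the day, and the outcome was read by taking the replicate numbers of the labels as the mouse numbers in the study's text. For the dual ICI libraries of 3wk, the column headers of the counts carry other numbers than the labels, with gaps. Mouse numbers of that group are therefore replicate numbers of the labels only.

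Monocytes made in the bone marrow enter the blood through the receptor CCR2, and the same receptor draws them into inflamed tissue and tumors, where many become macrophages. In mice the ligands of CCR2 include CCL2, CCL7 and CCL12, made by fibroblasts, tumor cells, endothelium and myeloid cells. Mouse monocytes of the inflammatory kind carry much Ly6C and CCR2 and little of the fractalkine receptor CX3CR1, while the patrolling kind has the opposite pattern, and tissue macrophages often carry CX3CR1 too. None of the genes is limited to monocytes: Ly6c2 is also made by T cells and plasma cells, Ccr2 by T cells and NK cells, and Plac8 by many epithelia.

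Library totals ranged from 25989217 to 31219650 counts with a median of 28625462. Levels are given as CPM, read counts relative to library sizes that were scaled by TMM over all 29 libraries. All samples are labelled as tumor tissue, and this was compared with a list of 12 gastric epithelium genes that includes Epcam, Krt8 and Cldn18. Their summed level was 740 to 3756 CPM in 25 libraries but 18.1, 38.7 and 94.0 CPM in the cured mice and 58.1 CPM in anti-PD1 mouse #5, and Gkn1, Gkn2, Tff1 and Muc5ac were at 0 in every cured library. Gkn2 and Tff1 were low throughout, at most 0.908 and 0.791 CPM in any library, and were at 0 in some of the other libraries too. The cured libraries and that of anti-PD1 mouse #5 held the most counts of 28 skeletal muscle genes. Their summed level was 369910 to 412440 CPM there and 41927 to 316550 CPM elsewhere, where untreated 5wk mouse #2 was highest. The cured libraries and that of anti-PD1 mouse #5 thus go against the label of tumor tissue, and values that rest on them are given with this in view. The 3wk and 5wk libraries carry library numbers with different prefixes, whose meaning the labels do not give. Time and any batch that goes with the prefix cannot be told apart. Since the tissue was not sorted, fewer cells of a type and less RNA per cell cannot be told apart either.

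The 3 ligand genes lie close together on chromosome 11 (GRCm38, plus strand), Ccl2 at chr11:82035577-82037452, Ccl7 at chr11:82045712-82047525 and Ccl12 at chr11:82101845-82103399. They encode CC chemokines, named for a pair of adjacent cysteines near the start of the mature protein. Of each coding sequence, a stretch of 126 bases from the GENCODE vM21 transcript is shown, with the codons of the adjacent cysteines in capitals, to show how alike these ligands of 1 receptor are.
Ccl2: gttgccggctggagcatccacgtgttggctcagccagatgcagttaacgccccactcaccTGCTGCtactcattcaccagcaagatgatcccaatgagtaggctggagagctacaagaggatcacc
Ccl7: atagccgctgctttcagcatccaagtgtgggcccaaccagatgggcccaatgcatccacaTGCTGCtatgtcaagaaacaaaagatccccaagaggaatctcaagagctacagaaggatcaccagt
Ccl12: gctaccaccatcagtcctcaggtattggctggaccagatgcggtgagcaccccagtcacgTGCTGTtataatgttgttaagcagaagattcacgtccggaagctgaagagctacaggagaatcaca
Over the aligned coding bases, Ccl2 and Ccl7 were identical at 72.1%, Ccl2 and Ccl12 at 69.7% and Ccl7 and Ccl12 at 69.1%. The paired cysteines were codons 34 and 35 of Ccl2 and codons 33 and 34 of Ccl7 and Ccl12, counted from the start codon.

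Ly6c2 (chr15:75108161-75112066, minus strand) encodes a small surface protein, and with its neighbour Ly6c1 (chr15:75044018-75048920, minus strand) it makes up the Ly6C antigen. The first 120 coding bases of both genes are shown because their likeness limits what a count of Ly6c2 means. Capitals mark the 6 positions of this stretch at which the genes differ.
Ly6c2: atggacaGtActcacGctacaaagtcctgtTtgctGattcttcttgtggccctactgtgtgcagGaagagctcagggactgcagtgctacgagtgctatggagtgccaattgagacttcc
Ly6c1: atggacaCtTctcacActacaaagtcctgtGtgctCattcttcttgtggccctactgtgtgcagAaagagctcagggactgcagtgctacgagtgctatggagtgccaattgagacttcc
The 393 coding bases of Ly6c2 and Ly6c1 differed at 9 positions (97.7% identical). The study's text gives paired-end reads of 150 bases. Of all windows of that length in the Ly6c2 transcript, 5.79% also occurred unchanged in a Ly6c1 transcript, so part of the reads could have been shared between these genes. Of windows of 50 bases, which are shorter than the reads, 32.6% did. Ly6c1, which is also high in endothelium, was at 78.8 to 197 CPM, well above Ly6c2 at 1.18 to 10.1 CPM in the same 29 libraries. Counts of Ly6c2 are therefore uncertain to the extent that a small share of Ly6c1 reads was assigned to it.

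The other members are Ccr2 (chr9:124101918-124109140, plus strand), Plac8 (chr5:100551589-100572253, minus strand), which encodes a small cysteine-rich protein of leukocytes and epithelia, Chil3 (chr3:106147554-106167564, minus strand), the chitinase-like protein Ym1, Fcgr1 (chr3:96282909-96293969, minus strand), the high-affinity IgG receptor of monocytes and macrophages, and Cx3cr1 (chr9:120048683-120068296, minus strand). Positions are those of RefSeq on GRCm38. By gene position, Cx3cr1 overlaps the lncRNA gene Gm33858, and whether their exons overlap was not examined. Whether reads were counted by strand is not given in the sources used here, so reads from a shared stretch may belong to either gene.

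Per kilobase of transcript, Plac8 had the highest mean level of the 9 genes in every group, from 16.0 CPM per kb in cured mice to 218 CPM per kb in uncured mice. The other 8 lay between 0.247 CPM per kb, for Cx3cr1 in cured mice, and 21.4 CPM per kb, for Ccr2 in dual ICI mice at 3wk. Chil3 or Ly6c2 had the lowest mean per kb in every group but the cured mice, where Cx3cr1 did. The genes also differed in how far they ranged over the 29 libraries. Ccr2 went from 24.1 to 156 CPM and Fcgr1 from 5.02 to 31.5 CPM, whereas Cx3cr1 went from 0.787 to 40.4 CPM and Chil3 from 0.195 to 33.1 CPM. The plot of levels by library shows that the lowest groups were not the same for all genes, with cured mice lowest in Ly6c2, the ligands, Plac8, Fcgr1 and Cx3cr1, untreated 5wk mice lowest in Ccr2 and untreated 3wk mice lowest in Chil3.

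**Figure D1:**
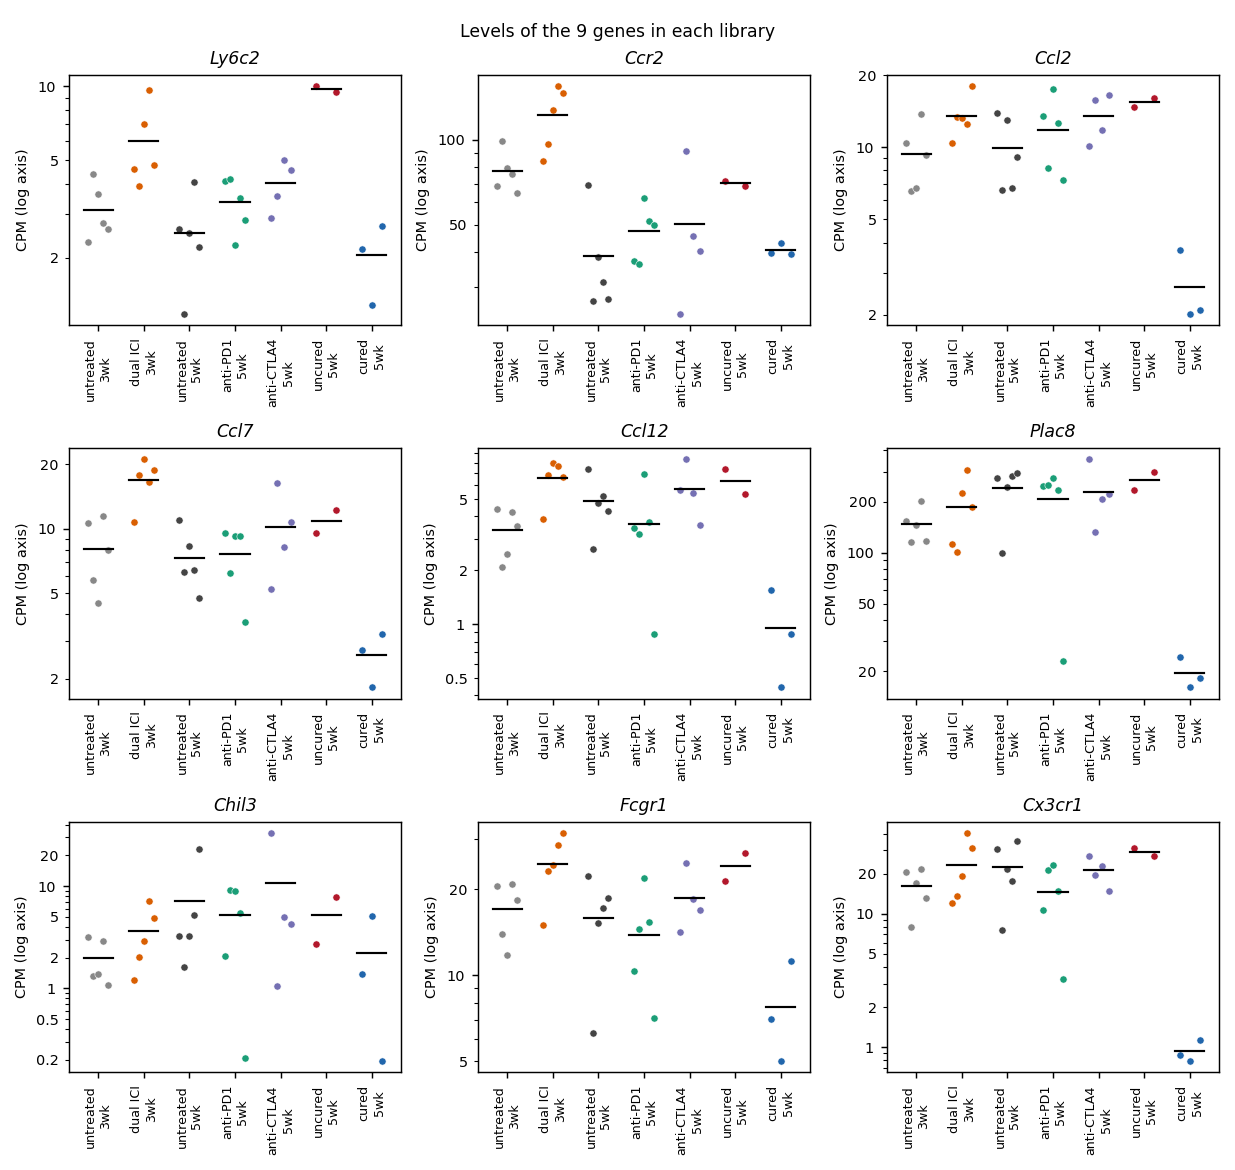
Level of each of the 9 genes (CPM, log axis) in each library, by group on the x axis; points are mice and black lines are group means. The uncured mice lie above all other 5wk libraries in Ly6c2, and the 3 cured mice lie below the untreated 5wk mice in Ccl2, Ccl7, Ccl12, Plac8 and Cx3cr1.

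Ordered by group mean, most neighbouring groups differed by no more than the larger of their SDs. Ly6c2 was highest in uncured mice (9.79 ± 0.366 CPM, SD, n = 2), and this step down to dual ICI mice at 3wk (6.01 ± 2.35 CPM, SD, n = 5) was the only one in Ly6c2 beyond the spread. Ccr2 was highest in dual ICI mice at 3wk (122 ± 30.8 CPM, SD, n = 5), beyond the spread above untreated mice at 3wk (77.5 ± 13.3 CPM, SD, n = 5), and each later step in the order lay within it. Ccl7 was also highest in dual ICI mice at 3wk (17.0 ± 3.86 CPM, SD, n = 5), beyond the spread above the uncured mice (10.9 ± 1.88 CPM, SD, n = 2). In Ccl2, Ccl7, Ccl12, Plac8, Fcgr1 and Cx3cr1 the last step, down to the cured mice, was beyond the spread, and in Fcgr1 so was the step from uncured (24.1 ± 3.92 CPM, SD, n = 2) to anti-CTLA4 mice (18.6 ± 4.48 CPM, SD, n = 4). No step in Chil3 was. These orders are descriptions with no test.

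The comparison at 3wk asked how the genes stood under dual ICI at the earlier time. Every one of the 9 had a higher mean in the dual ICI mice, with log2 fold changes (log2FC) from 0.35 in Plac8 to 1.08 in Ccl7, where 54.6% of all genes were above 0. Without dual ICI mouse #4 the log2FC was 0.082 in Plac8 (0.35 with it), 0.24 in Cx3cr1 (0.55 with it) and 0.49 in Chil3 (0.91 with it). The median over the 9 was 0.66, beside 0.024 over the 15503 genes tested. Called genes were those with an adjusted p under 0.05 from edgeR's quasi-likelihood test, adjusted by Benjamini and Hochberg's method over the whole table. None of the 9 was called, where 0.574% of all genes were (0.471% with a higher level), and 6 had an unadjusted p under 0.05 with a higher level, where 6.02% of all genes did. No gene of the 9 separated the groups, while 1.9% of all genes did with dual ICI above.

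Ccr2 was at 68.6, 98.9, 79.3, 75.8 and 64.9 CPM in the untreated mice #1 to #5 at 3wk. In the dual ICI mice of the same week it was at 84.4, 97.1, 128, 156 and 146 CPM. Mice #3, #4 and #5 under dual ICI lay above every untreated mouse, and mice #1 and #2 lay within the untreated range. The log2FC was 0.66 (standard error, SE, 0.19, adjusted p = 0.18 in edgeR).

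Among the ligands, Ccl7 stood furthest apart. It was at 10.6, 5.80, 4.50, 11.5 and 8.00 CPM in untreated mice and at 10.8, 17.8, 21.1, 16.5 and 18.8 CPM in dual ICI mice. Mouse #1 alone among the dual ICI mice overlapped with the untreated ones, and the log2FC was 1.08 (SE 0.26, adjusted p = 0.114 in edgeR). Ccl12 was at 4.40, 2.09, 2.47, 4.22 and 3.52 CPM against 3.88, 6.81, 7.97, 7.68 and 6.67 CPM, again with only mouse #1 inside the untreated range (log2FC 0.99, SE 0.26, adjusted p = 0.137 in edgeR). Ccl2 differed less, at 9.35 ± 2.94 CPM (SD, n = 5) in untreated and 13.5 ± 2.79 CPM (SD, n = 5) in dual ICI mice, a log2FC of 0.54 (SE 0.22, adjusted p = 0.394 in edgeR). As a share of the summed level of the 3 ligands per length, Ccl7 made up 42.1% ± 2.40 (SD, n = 5) with dual ICI and 35.8% ± 3.25 (SD, n = 5) without, and Ccl2 made up 33.5% ± 4.50 and 41.7% ± 2.78. The share of Ccl7 did not overlap between the groups (40.2% to 45.8% under dual ICI, 30.3% to 38.7% without), that of Ccl2 did, and neither was tested.

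Ly6c2 was at 2.31, 4.37, 3.63, 2.76 and 2.63 CPM in untreated mice and at 4.62, 3.91, 7.04, 9.66 and 4.80 CPM in dual ICI mice at 3wk. Only mouse #2 under dual ICI lay inside the untreated range, and the log2FC was 0.95 (SE 0.28, adjusted p = 0.206 in edgeR). Fcgr1 (0.53, SE 0.22), Cx3cr1 (0.55, SE 0.36), Chil3 (0.91, SE 0.48) and Plac8 (0.35, SE 0.30) had log2FC values whose edgeR adjusted p ranged from 0.405 to 0.757. DESeq2 in place of edgeR called Ccl7 (adjusted p = 0.00663), Ccl12 (0.0113), Ccr2 (0.0379) and Ly6c2 (0.0431), and no other alternative called any of the 9. DESeq2 also called more genes of the whole table than edgeR did, and the last section gives their number. On counts simulated for this comparison, DESeq2 made 45 false calls and edgeR 9. T cell markers stood beside the levels of the 9 genes: the summed level of 9 T cell genes was 14.1 to 26.4 CPM in untreated and 43.1 to 81.4 CPM in dual ICI mice. The summed level of 12 mature macrophage genes was 1021 to 1184 CPM against 1144 to 2015 CPM, and that of the leukocyte gene Ptprc was 78.6 ± 9.85 CPM against 123 ± 33.1 CPM (SD, n = 5 each). Their part in the differences was not tested.

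At 5wk the uncured mice, whose tumors persisted under dual ICI, were compared with untreated mice of the same week, which are also the controls of the other comparisons at 5wk. Ly6c2 differed most: it was at 10.1 and 9.53 CPM in uncured mice #1 and #5. In untreated mice #1 to #5 it was at 2.63, 1.18, 2.52, 4.06 and 2.20 CPM, so both uncured mice lay above all 5. The log2FC was 1.95 (SE 0.37), with an unadjusted p of 0.000502 and an adjusted p of 0.734 from edgeR, where 0% of the 16156 genes were called and 787 had an unadjusted p under 0.05. DESeq2 called 18 genes in all, and on counts simulated for this comparison it made 63 false calls, where edgeR made 7. For Ly6c2 DESeq2 gave an adjusted p of 0.00624, and over the other alternatives, all with edgeR, that p ranged from 0.126, with all 29 libraries in 1 fit, to 1.00. Ly6c1 did not show this pattern, at 88.8 and 121 CPM in the uncured and 78.8 to 131 CPM in the untreated mice.

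Ccr2 was at 71.5 and 68.7 CPM in the uncured mice, and at 69.1, 26.8, 38.4, 31.3 and 27.3 CPM in the untreated mice. Untreated mouse #1 alone reached the uncured level, and the log2FC was 0.86 (SE 0.35, unadjusted p = 0.0353 and adjusted p = 0.734 from edgeR). Ccl2 was at 14.7 and 16.1 CPM against 13.9, 6.66, 13.0, 6.76 and 9.12 CPM, so that the groups did not overlap (log2FC 0.63, SE 0.32, adjusted p = 0.734 in edgeR). Ly6c2 and Ccl2 were the 2 members without overlap, where 9.19% of all genes had both uncured mice above all untreated mice. Ccl7 (0.57), Ccl12 (0.38), Fcgr1 (0.59), Cx3cr1 (0.37) and Plac8 (0.16) had positive log2FC values with SEs from 0.32 to 0.46, and Chil3 had a negative one (-0.46, SE 0.95). In all, 8 of the 9 genes were higher in uncured mice, where 48.8% of all genes were, with a median log2FC of 0.57, beside -0.0098 over all genes tested, and 2 had an unadjusted p under 0.05, where 2.74% of all genes did in this direction. The direction of Plac8 turned without uncured mouse #5 (-0.054), without untreated mouse #2 (-0.036) and with the replicate block (-0.10), and that of Cx3cr1 with the block (-0.16). The T cell list was at 49.2 and 50.9 CPM in the uncured and 16.7 to 29.7 CPM in the untreated mice, Ptprc was at 77.6 and 86.8 CPM against 26.9 to 67.7 CPM, and the part of either in these values was not tested.

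**Figure D2:**
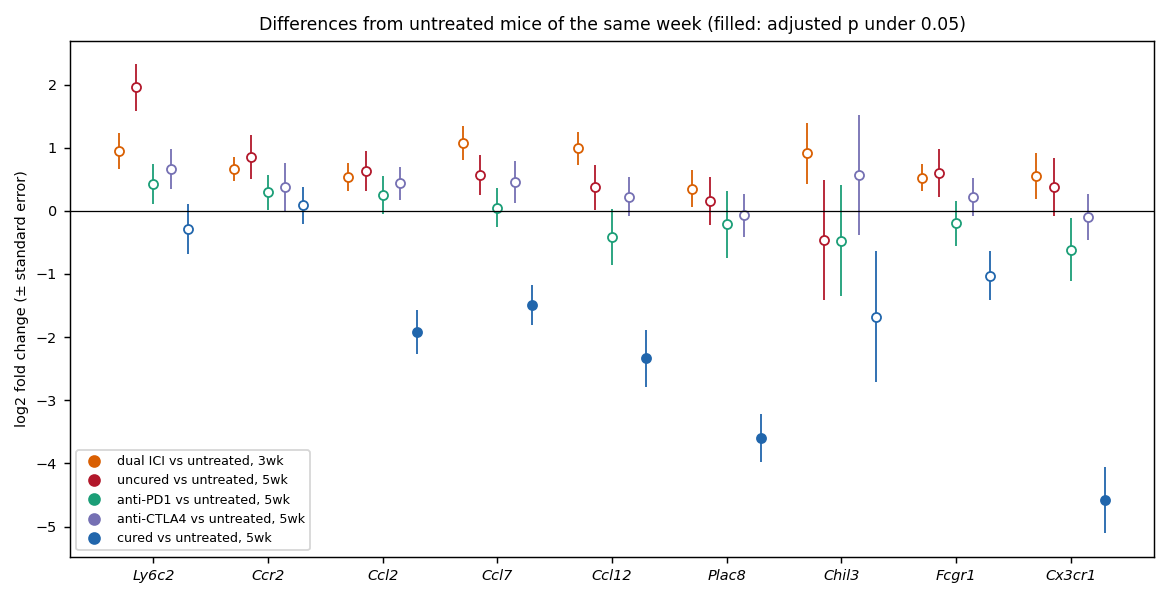
Log2FC of each of the 9 genes (x axis) against untreated mice of the same week, with its standard error (SE), from edgeR; colours are the comparisons and filled points have an adjusted p under 0.05. The filled points are Ccl2, Ccl7, Ccl12, Plac8 and Cx3cr1 in cured mice, from -1.50 to -4.58, and no point of the other 4 comparisons is filled.

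When the 5 dual ICI mice of 5wk were kept together as the labels give them, none of the 9 genes was called, as was the case for 0% of the 15588 genes tested, and 1071 genes (6.87%) had an unadjusted p under 0.05 in edgeR, none of them a member. DESeq2 called 56 genes and again no member. Ly6c2 (1.03, SE 0.58) and Ccr2 (0.44, SE 0.30) had positive log2FC values, where 48.4% of all genes did, and the other 7 had negative ones, from -0.16 in Fcgr1 to -1.06 in Chil3. The group held libraries with and without tumor: Plac8, for example, was at 233 and 299.8 CPM in the uncured mice and at 24.3, 16.0 and 18.3 CPM in the cured mice.

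In the cured mice, 5 of the 9 genes fell against untreated mice of the same week, and each of these 5 separated the groups. The call was given to 44.7% of all 15816 genes tested and to 26.7% with a lower level, and 26.4% of all genes had the cured mice below every untreated mouse. Cx3cr1 was at 0.876, 0.787 and 1.12 CPM in cured mice #2, #3 and #4 and at 30.5, 7.55, 21.9, 17.5 and 35.2 CPM in untreated mice, a log2FC of -4.58 (SE 0.53, adjusted p = 0.00024 in edgeR). Plac8 was at 24.3, 16.0 and 18.3 CPM in cured and at 275, 99.7, 242, 284 and 294 CPM in untreated mice (log2FC -3.60, SE 0.38, adjusted p = 0.000182 in edgeR). In both genes the lowest untreated value was that of mouse #2, whose library was rich in muscle.

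All 3 ligands of CCR2 fell in the cured mice. Ccl2 was at 3.71, 2.02 and 2.10 CPM (untreated 6.66 to 13.9 CPM), a log2FC of -1.92 (SE 0.35, adjusted p = 0.00237 in edgeR). Ccl7 was at 2.73, 1.82 and 3.22 CPM (untreated 4.75 to 11.0 CPM), a log2FC of -1.50 (SE 0.32, adjusted p = 0.00529 in edgeR). Ccl12 was at 1.55, 0.443 and 0.878 CPM (untreated 2.64 to 7.40 CPM), a log2FC of -2.34 (SE 0.45, adjusted p = 0.00307 in edgeR). The cured libraries held 9 to 30 counts of Ccl12 and 16 to 23 counts of Cx3cr1.

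The receptor and the other monocyte genes did not pass the test. Ccr2 was at 39.6, 43.0 and 39.4 CPM in the cured mice, inside the untreated range of 26.8 to 69.1 CPM, with a log2FC of 0.089 (SE 0.29, adjusted p = 0.819 in edgeR). Ly6c2 was at 2.16, 1.28 and 2.68 CPM in cured mice, also within the untreated range (log2FC -0.29, SE 0.39, adjusted p = 0.568 in edgeR). Fcgr1 was at 7.06, 5.02 and 11.2 CPM against 6.29 to 22.3 CPM, with a log2FC of -1.02 (SE 0.39, adjusted p = 0.0547 in edgeR). Its call turned with the setting: the adjusted p was 0.0279 with DESeq2, 0.0193 with all 29 libraries in 1 fit, 0.044 without cured mouse #4 and 0.00352 without untreated mouse #2. Chil3 (log2FC -1.68, SE 1.04) did not pass the threshold, and its cured values of 1.39, 5.12 and 0.195 CPM overlapped with the untreated ones.

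The 5 called genes stayed called under all 14 alternatives run for this comparison. The groups differed in tissue content beside these genes. The gastric epithelium list was at 18.1 to 94.0 CPM in cured and 1038 to 3660 CPM in untreated mice, the muscle list at 369910 to 412440 CPM against 63874 to 316550 CPM, and the neutrophil list at 7.48 to 9.71 CPM against 29.6 to 94.2 CPM. The part of each in the falls was not tested.

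The uncured and the cured mice had received the same antibodies, and 8 of the 9 genes were called as higher in the uncured ones, beside 70% of the 15796 genes tested, 36.9% with a higher level. The same 8 genes did not overlap between the groups, and 43.3% of all genes had both uncured above all cured mice. Log2FC values were 4.96 in Cx3cr1 (SE 0.19), 3.76 in Plac8 (SE 0.18), 2.72 in Ccl12 (SE 0.40), 2.55 in Ccl2 (SE 0.26) and 2.06 in Ccl7 (SE 0.26). They were 2.25 in Ly6c2 (SE 0.28), 1.62 in Fcgr1 (SE 0.28) and 0.77 in Ccr2 (SE 0.092), all with an edgeR adjusted p of 0.000944 or less. With all 29 libraries in 1 fit, the adjusted p of Ccr2 was 0.0876 (log2FC 0.79). Chil3 was not called (1.22, SE 0.85, adjusted p = 0.229 in edgeR), though without cured mouse #3 it was (2.72, adjusted p = 0.0185).

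Under anti-PD1 or anti-CTLA4 alone, none of the 9 genes was called against untreated 5wk mice, and 0% of all genes were called in either comparison. The anti-PD1 values come from a group that holds a cured mouse whose number is not given. None of the 9 had an unadjusted p under 0.05, no alternative called any, DESeq2 called 0 genes of the whole table in either comparison, and 205 of 15640 genes (1.31%) and 128 of 15781 genes (0.811%) had an unadjusted p under 0.05 in edgeR. The log2FC was above 0 in 4 of the 9 under anti-PD1 and in 7 under anti-CTLA4, where 48.8% and 45% of all genes were. Ly6c2 was at 4.11, 4.19, 2.24, 3.50 and 2.86 CPM under anti-PD1, a log2FC of 0.43 (SE 0.31). Under anti-CTLA4 it was at 2.90, 3.58, 5.01 and 4.57 CPM, a log2FC of 0.66 (SE 0.32, unadjusted p = 0.0613 and adjusted p = 1.00 from edgeR). Both ranges met that of the untreated mice and stayed below the uncured mice.

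Anti-PD1 mouse #5 had the lowest value of its group in 7 of the 9 genes. Plac8 was at 23.0 CPM there and at 234 to 275 CPM in the other 4, Cx3cr1 at 3.22 against 10.7 to 23.3 CPM, and Ccl12 at 0.884 against 3.21 to 6.94 CPM. Its Ccr2 level of 50.02 CPM lay in the middle of the group, whose other values were 37.3, 36.1, 62.0 and 51.4 CPM. Without this mouse the log2FC of Plac8 under anti-PD1 was 0.069 in place of -0.21. In the anti-CTLA4 group Ccr2 was at 24.1, 91.4, 45.7 and 40.2 CPM, and without mouse #2 the log2FC was -0.086 in place of 0.37.

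Chil3 spread the most within groups. It was at 2.09, 9.26, 8.88, 5.52 and 0.208 CPM under anti-PD1 and at 33.1, 1.05, 4.97 and 4.27 CPM under anti-CTLA4, beside 3.23, 1.62, 3.22, 5.21 and 22.9 CPM in untreated mice. The log2FC was -0.47 (SE 0.87) under anti-PD1 and 0.57 (SE 0.95) under anti-CTLA4, and without 1 of the mice either value changed sign.

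Without treatment, Ccr2 was lower at 5wk than at 3wk. It was at 69.1, 26.8, 38.4, 31.3 and 27.3 CPM at 5wk and at 64.9 to 98.9 CPM at 3wk, a log2FC of -1.01 (SE 0.25, adjusted p = 0.0279 in edgeR). Mouse #1 at 5wk overlapped with the 3wk mice. Of all 15604 genes, 10.8% were called, 4.58% with a lower level, and Ccr2 was the only member among them. This call was lost, with adjusted p-values from 0.0516 to 0.0706, when 1 of 7 mice was left out: untreated 5wk mouse #3, #4 or #5, or untreated 3wk mouse #1, #2, #3 or #5. It was kept without untreated 5wk mouse #1 or #2 or 3wk mouse #4. Ptprc was at 26.9 to 67.7 CPM at 5wk and 66.3 to 92.6 CPM at 3wk. Plac8 (log2FC 0.70, SE 0.27, adjusted p = 0.105 in edgeR) and Chil3 (1.88, SE 0.67, adjusted p = 0.0873 in edgeR) did not pass the threshold, though without untreated 5wk mouse #2, the library rich in muscle, both did (adjusted p = 0.00364 and 0.0235). DESeq2 called Chil3 as well (adjusted p = 0.0174). DESeq2 also called more genes of the whole table than edgeR did. The number that edgeR called changed widely with the mouse left out, and the last section gives these numbers. Ccl2, Ccl7, Ccl12, Ly6c2, Fcgr1 and Cx3cr1 had log2FC values from -0.32 to 0.54 and none was called under any alternative run.

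Whether the difference between dual ICI and untreated mice changed from 3wk to 5wk was tested as an interaction over 17 libraries, with the uncured mice standing for dual ICI at 5wk. These mice were picked by outcome and had received more doses, while the 3wk mice were not split by outcome. How the 3wk dual ICI mice were chosen for sequencing is not given in the sources used here. Time, doses and outcome thus cannot be told apart in it. None of the 9 genes and 0% of all 16542 genes were called, and 1050 genes (6.35%) had an unadjusted p under 0.05 in edgeR, while DESeq2 called 1 gene, not a member. Ly6c2 was the only member among these, with a difference of 1.02 between the log2FC values of the weeks (SE 0.48, unadjusted p = 0.0499 and adjusted p = 0.707 from edgeR).

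Over the 29 libraries there were 54.6 to 121 Ccr2 counts for each 100 counts of Ptprc, the gene of the leukocyte antigen CD45. The ratio was 98.5 ± 9.20 (SD, n = 5) in untreated and 100 ± 7.56 (SD, n = 5) in dual ICI mice at 3wk, so the higher mean Ccr2 level under dual ICI stood beside a higher mean Ptprc level. At 5wk it was 86.4 ± 18.4 (SD, n = 5) in untreated, 85.7 ± 9.17 (SD, n = 2) in uncured and 92.8 ± 11.1 (SD, n = 3) in cured mice. The lowest ratios were 54.6 in anti-CTLA4 mouse #1 and 56.3 in untreated 5wk mouse #5, the libraries with the highest Chil3 levels of all (33.1 and 22.9 CPM).

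Ly6c2 ranged more widely against Ptprc. For each 100 Ptprc counts there were 3.96 ± 0.730 Ly6c2 counts (SD, n = 5) in untreated and 4.86 ± 1.02 (SD, n = 5) in dual ICI mice at 3wk, with ranges that overlapped. In the uncured mice there were 12.9 and 11.0, against 3.88 to 11.8 in untreated mice at 5wk, where untreated mouse #4 was highest. Relative to Ptprc the uncured mice thus overlapped with the untreated ones in Ly6c2, whereas in CPM they did not. Cx3cr1 was 1.65 to 2.37 per 100 Ptprc counts in cured mice and 28.1 to 72.6 in untreated 5wk mice, and Fcgr1 was 10.5 to 23.7 against 23.4 to 50.2, with a small overlap. These ratios are descriptions and were not tested.

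**Figure D3:**
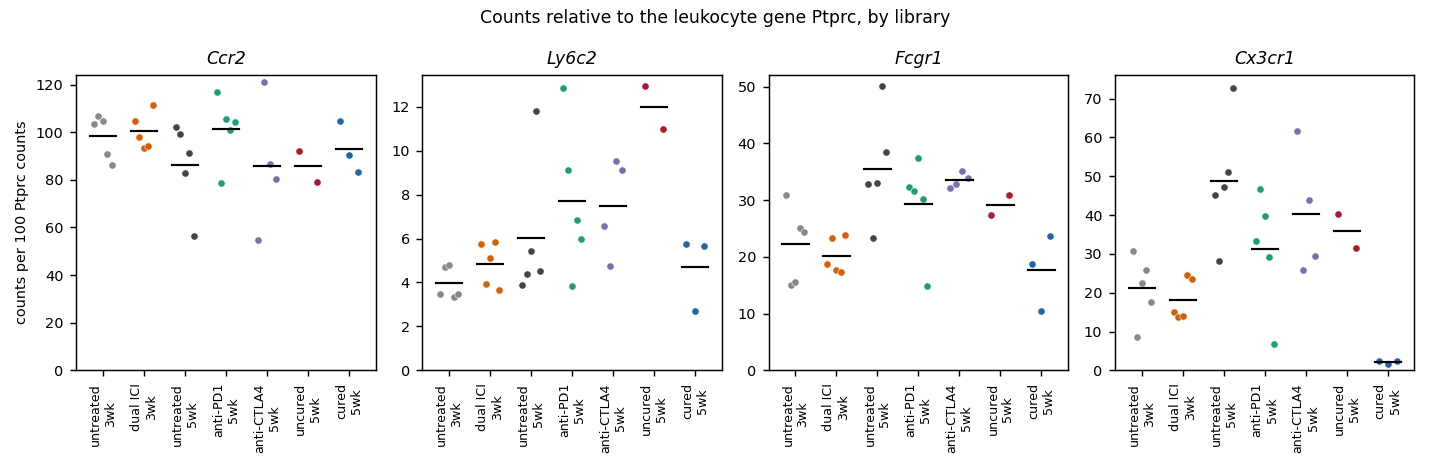
Counts of Ccr2, Ly6c2, Fcgr1 and Cx3cr1 for each 100 counts of Ptprc (linear axes from 0) in each library, by group; points are mice and black lines are means. The group means of Ccr2 lie between 85.6 and 101, while Cx3cr1 in the cured mice lies at 1.65 to 2.37.

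Around these genes, 12 further genes of the CC chemokine axis and 20 genes of the monocyte lineage were followed. At 3wk, 2 of the 12 chemokine genes and 2 of the 20 lineage genes were called, all higher under dual ICI, where 0.471% of all genes were. Without untreated mouse #5 the comparison called 6 genes in all in place of 89. Ccl5, a chemokine made by activated T cells and NK cells, stood at 3.58 ± 0.738 CPM (SD, n = 5) without and 18.1 ± 7.20 CPM (SD, n = 5) with dual ICI, a log2FC of 2.34 (SE 0.28, adjusted p = 0.00681 in edgeR). Ccl4, a chemokine of activated lymphocytes and myeloid cells, was at 3.75 ± 1.14 CPM against 0.674 ± 0.255 CPM (log2FC 2.47, SE 0.32, adjusted p = 0.0119 in edgeR). Irf8, a transcription factor of monocytes and dendritic cells, had a log2FC of 0.99 (SE 0.17, adjusted p = 0.0322 in edgeR), and Spn, the leukocyte sialoprotein CD43 of T cells and patrolling monocytes, of 1.17 (SE 0.17, adjusted p = 0.0176 in edgeR). These 4 genes were named because they were called in these same libraries. In each of them every dual ICI mouse lay above every untreated mouse, where 1.9% of all genes showed this. The median log2FC was 0.84 over the chemokine list and 0.39 over the lineage list. None of the 32 genes was called in the uncured mice or under either monotherapy against untreated mice, where 0% of all genes were called in each comparison.

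In the cured mice, 7 of the 12 chemokine genes fell and 2 rose, where 26.7% of all genes fell and 18% rose. Cx3cl1, the fractalkine that binds CX3CR1, fell with its receptor: it was at 5.30 ± 0.954 CPM (SD, n = 3) in cured mice beside 58.1 ± 21.3 CPM (SD, n = 5) in untreated ones, a log2FC of -3.44 (SE 0.37, adjusted p = 0.000189 in edgeR). Ccl8, a further CC chemokine of the same cluster, was at 18.8 ± 3.34 CPM against 75.5 ± 23.8 CPM (log2FC -1.99, SE 0.29, adjusted p = 0.000749 in edgeR). Ccl3 and Ccl4, a pair of related inflammatory chemokines, were at 0.147 ± 0.129 and 0.0652 ± 0.0745 CPM in cured mice and at 1.24 ± 0.484 and 0.849 ± 0.502 CPM in untreated mice. The atypical receptors Ackr2 (log2FC 0.86, adjusted p = 0.0475 in edgeR) and Ccrl2 (0.69, adjusted p = 0.0378 in edgeR) rose.

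Of the 20 lineage genes, 7 fell in the cured mice and 2 rose, beside the same shares of 26.7% and 18% over all genes. Fcgr4, an IgG receptor of patrolling monocytes and macrophages, was at 1.63 ± 0.679 CPM (SD, n = 3) against 10.8 ± 3.40 CPM (SD, n = 5), a log2FC of -2.72 (SE 0.39, adjusted p = 0.000686 in edgeR). Cd14, the co-receptor for endotoxin, had a log2FC of -2.50 (SE 0.36, adjusted p = 0.000724 in edgeR), and Spn of -1.32 (SE 0.28, adjusted p = 0.00519 in edgeR). Treml4 was at 0.0998 ± 0.0495 CPM against 0.554 ± 0.199 CPM. Nr4a1, a factor of patrolling monocytes that many other cells make when stimulated, rose (log2FC 1.76, SE 0.41, adjusted p = 0.00765 in edgeR), as did F13a1, coagulation factor XIII of monocytes and resident macrophages (0.85, SE 0.19, adjusted p = 0.00593 in edgeR). Between uncured and cured mice, 7 chemokine and 13 lineage genes were higher and 2 and 3 lower, where 36.9% of all genes were higher and 33.1% lower. Those with the largest differences were Ccl4, Cx3cl1, Ccl3 and Ccl8 among the chemokine genes, of which Cx3cl1 had a log2FC of 3.86 and Ccl8 of 2.64, and Fcgr4 (3.41), Treml4, Cd14 (2.73) and Ms4a4c (2.46) among the lineage genes. Ccl4 had 0 to 3 counts in the cured libraries, and Ccl3 and Treml4 were also near the floor there, so the size of their differences is uncertain. Lower in uncured mice were Ackr2 (-1.04), Ccrl2 (-0.82), Nr4a1 (-2.29), Cebpb (-0.75) and F13a1 (-0.47). F13a1 was the only called gene of both lists between untreated mice at 5wk and 3wk (log2FC -1.11, SE 0.18, adjusted p = 0.00661 in edgeR), at 105 ± 22.7 CPM against 225 ± 45.9 CPM (SD, n = 5 each).

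Within groups, some of the 9 genes varied together and others did not. Deviations of log2 CPM from the group means were correlated over the 29 libraries, as a description of libraries that share their tissue makeup and normalization. Of the 36 pairs, 14 had a Pearson r above 0.5 and the median was 0.39. Without anti-PD1 mouse #5 and untreated 5wk mouse #2, an alternative chosen after seeing the data, 9 pairs did, with a median of 0.21. The 3 ligands stayed together in both sets: r was 0.77 for Ccl2 with Ccl7, 0.69 for Ccl2 with Ccl12 and 0.69 for Ccl7 with Ccl12, and 0.74, 0.61 and 0.61 without those mice. Ly6c2 had no pair above 0.5, its highest r being 0.37 with Plac8, and its r with Ccr2 was 0.22. Plac8 with Cx3cr1 had the highest r of all pairs, 0.84, and 0.64 without those mice.

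The genes closest to each member over 16700 genes differed from member to member. Ccr2 was closest to Clec4a3 (r = 0.87), Evi2a (0.86) and Clec4a1 (0.86), of which the Clec4a genes encode lectin receptors of myeloid cells. Ly6c2 was closest to Pou2af1 (0.78), a cofactor of B cells and plasma cells, Jchain (0.70), the joining chain of IgM and IgA in plasma cells, and Epsti1 (0.70), and these values were 0.69, 0.59 and 0.56 without the named mice. Fcgr1 was closest to Ms4a6c (0.90) and Msr1 (0.89), a scavenger receptor of macrophages. Chil3 was closest to Vsig4 (0.93), a complement receptor of resident macrophages, Cd177 (0.86) and Mroh7 (0.84).

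The ligands were near genes of other kinds. Ccl7 was closest to Sfrp1 (r = 0.85) and Plod2 (0.84), a secreted Wnt binder and a collagen lysyl hydroxylase of stromal cells, and to Myd88 (0.84). Ccl2 was closest to Ckap4 (0.81), 1810055G02Rik (0.81) and the metalloproteinase gene Mmp19 (0.77), and Ccl12 to Arpc4 (0.88), AU022793 (0.85) and Fam101a (0.85). Against the summed marker lists, Ccl7 had its highest r with the 6 fibroblast genes (0.78), and Ccl2 had 0.65 with them.

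Plac8 and Cx3cr1 varied with several of the marker lists. Plac8 was closest to Epb4.1l4b (r = 0.99), Zfp239 (0.98) and Ppap2c (0.98), and its r with the gastric epithelium list was 0.94, or 0.76 without anti-PD1 mouse #5 and untreated 5wk mouse #2. Its r was 0.91 with the neutrophil list and -0.83 with the skeletal muscle list, the latter -0.79 without those mice. Cx3cr1 was closest to Ap4m1 (0.94), Rnf149 (0.94) and Slc7a7 (0.94), with an r of 0.76 with the epithelium list, or 0.47 without those mice. It had values further from 0 with other lists, at 0.92 with the neutrophil list, -0.87 with the muscle list (-0.77 without those mice) and -0.85 with the plasmacytoid dendritic cell list, whose level is mostly that of Cox6a2, a gene also made by muscle. Ccr2 had an r of -0.014 with the epithelium list. In the plot against the epithelium genes, the 4 libraries with little epithelium were the lowest in Plac8 and in Cx3cr1 but not in Ccr2. The part of the epithelium, muscle or neutrophils in the levels of Plac8 and Cx3cr1 was not tested.

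**Figure D4:**
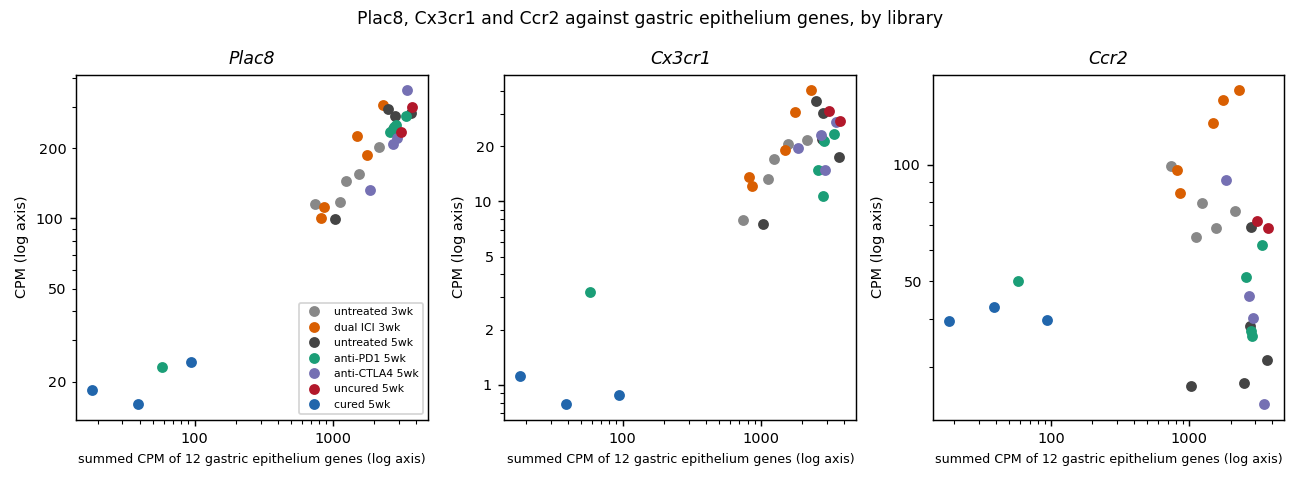
Level of Plac8, Cx3cr1 and Ccr2 (CPM, log axis) in each of the 29 libraries against the summed level of 12 gastric epithelium genes (CPM, log axis); colours are the groups. The 4 libraries below 100 CPM of epithelium genes, 3 cured mice and anti-PD1 mouse #5, have Plac8 at 16.0 to 24.3 CPM and Cx3cr1 at 0.787 to 3.22 CPM, while their Ccr2 levels lie within those of the other 25 libraries.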

How the data were processed

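Total RNA of 29 peritoneal samples was sequenced, and the authors deposited 1 table of raw read counts per gene, aligned to mm10 with STAR 2.7.0f and counted with featureCounts 1.6.4 per the labels' processing notes. The study's text names another version of the aligner and another counting tool, HTSeq, and the strand setting is not given in the sources used here. From the counts, genes were filtered by filterByExpr within each comparison, scaled by TMM and tested with the quasi-likelihood test of edgeR 4.0.16 in R 4.3.3, two-sided, with Benjamini-Hochberg adjustment and a threshold of 0.05. CPM used TMM factors over 29 libraries, and log2 CPM a prior count of 2. Libraries held 25989217 to 31219650 counts. The labels number the replicates without naming animals, so p-values measure the spread between these samples. Alternatives were DESeq2 1.42.0, upper-quartile scaling, no filter, muscle genes left out, 1 fit of all libraries, the replicate block and leaving out each mouse. The 3 genes most like each member by Pearson r of deviations from group means were named, beside all 9 members and, per pathway list and direction, the 4 called genes with the largest changes. 1 gene that this rule names is not reported here. Members and lists were chosen with earlier results of these data known. On simulated counts, edgeR recovered 96.5% of 200 genes changed 4-fold at 3wk, and 84% for uncured against untreated mice. DESeq2 made more false calls than edgeR in every comparison. These counts were drawn gene by gene, without the differences in tissue content of the real libraries. Changes smaller than 4-fold were not simulated, so the recovery does not hold for them. Same-numbered mice did not deviate together in every pair in any comparison, so the numbers were not taken as pairs.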

Additional observations from a re-analysis of the deposited data

Results flagged for a closer look

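Of 45 combinations of gene and group with 4 or 5 mice, 5 had 1 mouse farther from the others than Dixon's 95% critical value, where chance gives about 1 in 20. Ccr2 was high in untreated 5wk mouse #1, at 69.1 CPM, with the other 4 at 26.8 to 38.4 CPM, and Ptprc was highest of the group in that mouse as well, at 67.7 CPM. Plac8 was low in untreated 5wk mouse #2, at 99.7 CPM, and in anti-PD1 mouse #5, at 23.0 CPM. These are the libraries with the least gastric epithelium signal of their groups (1038 and 58.1 CPM) and the most muscle signal (316550 and 384050 CPM). Chil3 was high in untreated 5wk mouse #5, at 22.9 CPM, and in anti-CTLA4 mouse #1, at 33.1 CPM, beside 1.62 to 5.21 CPM and 1.05 to 4.97 CPM in the other mice of those groups.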

How the results depend on the processing

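Of 1251 alternative values for single genes, 1183 kept their direction and their side of the threshold, 8 fell short of it, 13 passed it and 47 reversed, in 21 results, none of them called either way. DESeq2 called 507 genes and 4 members at 3wk, 18 genes and 1 member in uncured against untreated mice, 56 genes in all dual ICI against untreated mice at 5wk, 3141 genes and 2 members between untreated mice at 5wk and 3wk, and 1 gene for the interaction. With the replicate block, 209 genes were called at 3wk and 4016 in cured mice. Under the block the log2 fold change was -0.10 for Plac8 and -0.16 for Cx3cr1 in uncured against untreated mice, 0.029 for Plac8 and 0.22 for Cx3cr1 under anti-CTLA4, and -0.036 for Ccl2 and -0.095 for Fcgr1 in the interaction. No paired analysis was possible for uncured against cured mice because they share no numbers.

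Leaving out each mouse gave 6 to 119 called genes at 3wk, lowest without untreated mouse #5 and highest without dual ICI mouse #1, 4491 to 9388 in cured mice, and 654 to 4915 with 0 to 3 members between untreated mice at 5wk and 3wk. Log2 fold changes that crossed 0 ranged as follows. In uncured against untreated mice, Plac8 ranged from -0.054 to 0.33 and Chil3 from -1.45 to 0.67. In all dual ICI mice at 5wk, Chil3 ranged from -1.61 to 0.059 and Fcgr1 from -0.52 to 0.056. Under anti-PD1, Ccl7 ranged from -0.072 to 0.24, Plac8 from -0.41 to 0.069 and Chil3 from -0.78 to 0.65. Under anti-CTLA4, Ccr2 ranged from -0.086 to 0.68, Ccl12 from -0.012 to 0.42, Plac8 from -0.36 to 0.12, Chil3 from -1.08 to 1.69 and Cx3cr1 from -0.32 to 0.11. In cured mice Ccr2 ranged from -0.017 to 0.39. Between untreated mice at 5wk and 3wk, Ccl2 ranged from -0.063 to 0.25, Ccl7 from -0.32 to 0.0099 and Fcgr1 from -0.25 to 0.091, and in the interaction Ccl2 from -0.079 to 0.26, Plac8 from -0.39 to 0.071, Fcgr1 from -0.14 to 0.23 and Cx3cr1 from -0.39 to 0.14. The cause was not tested.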
